A study of Rattus norvegicus with 20 samples.

Results

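The suppressor of cytokine signalling (SOCS) family is a set of 8 feedback inhibitors, Socs1 to Socs7 and Cish. Its genes were followed in whole blood of 20 Wistar rats, with 4 arrays in each of 5 groups. The members were chosen by name: every probe whose gene name in the scanner files is one of the 8 symbols, or an older symbol of one of them, was taken. This gave 10 of the 30367 probes on the array, 2 for Cish, 2 for Socs7 and 1 for each of the others, and 8 of the 26263 genes and unnamed targets. A probe was tested when it was well above background on at least 4 of the 20 arrays, which 7 of the 10 probes and 6 of the 8 genes were: Socs1, Socs3, Socs4, Socs5, Socs7 and Cish. The array as a whole had 16537 such probes and 14652 such genes.

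In 4 of the groups an operation had caused reflux esophagitis, an inflammation of the esophagus by backflow of stomach contents. Omeprazole rats received this proton pump inhibitor at 30 mg/kg. STW5 2 ml/kg rats and STW5 0.5 ml/kg rats received STW5, a liquid mixture of medicinal plant extracts, at those doses. Dosing began 7 days ahead of surgery and went on for another 10 days. Untreated rats were operated and received no drug, and sham rats had a sham operation. Whether treated rats also differ from the others in a vehicle is not stated in the labels. Blood is a mixture of cells, and in such bulk RNA fewer cells of a type and less RNA per cell cannot be told apart. Markers of blood cells were present: 10 of 11 tested neutrophil genes and 8 of 8 tested erythroid genes were well above background on all 20 arrays.

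SOCS proteins close a feedback loop on cytokine receptors. A cytokine bound to its receptor activates JAK kinases, which phosphorylate STAT transcription factors, and the STATs switch on genes that include Cish, Socs1, Socs2 and Socs3. The SH2 domain of the SOCS protein then binds the receptor or the kinase. Socs1 and Socs3 also carry a short kinase inhibitory region that blocks the JAK, and the SOCS box at the end of every member recruits a ubiquitin ligase that marks bound proteins for degradation. In blood leukocytes Socs3 is known as the brake on interleukin 6 and G-CSF receptors, and Socs1 as the brake on interferon signalling.

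The sequences of 4 probes are shown because a value of Socs3, Socs1 or Socs4 below is the fluorescence of RNA bound to these 60 bases; for Cish the dimmer of its 2 probes is shown. No probe of another gene shared 20 bases in a row with a SOCS family probe. Positions are those the scanner files give on the rat build rn4, and exon or UTR annotation of that build was not used here. The Socs3 probe lies at chr10:107958636-107958695 on the minus strand and the Socs1 probe at chr10:4820384-4820443 on the plus strand. The Cish probe shown lies at chr8:112544581-112544640 and the Socs4 probe at chr15:23242718-23242777, both on the plus strand.
Socs3: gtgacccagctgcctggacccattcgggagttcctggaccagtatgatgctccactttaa
Socs1: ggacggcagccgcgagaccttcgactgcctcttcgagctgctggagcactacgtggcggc
Cish: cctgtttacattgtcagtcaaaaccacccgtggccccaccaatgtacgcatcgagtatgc
Socs4: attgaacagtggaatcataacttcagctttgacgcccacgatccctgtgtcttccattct

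One sequence feature was looked at that the choice of members did not use. The letters TTCNNNGAA, the core of a STAT binding motif, read the same on both strands and were searched in RefSeq promoters on build GRCr8, from 250 bases before to 50 bases after the gene start. Promoters of 5 members were in that table (Cish, Socs1, Socs3, Socs4 and Socs6). Cish held 4 copies, Socs1 held 1 copy 196 bases before its start, and Socs3, Socs4 and Socs6 held none in this window. Bases outside this window were not searched, so none here does not mean none near the gene. The Socs3 window reads into the coding bases of the gene soon after the listed start. It may therefore lie at a coding exon and not at the promoter. Whether transcription begins at the listed starts was not checked, so the counts of the members may come from unlike regions. Of 33469 promoters 2970 (8.87%) held the motif at least once, and 2 (0.00598%) held 4 copies, the most found. The copies of Cish start 241, 230, 136 and 119 bases before its gene start. They are in capitals in the following stretch, chr8:116850719-116850868 of GRCr8, plus strand, which ends 101 bases before the start. A match is a description of letters and not a binding site.
Cish: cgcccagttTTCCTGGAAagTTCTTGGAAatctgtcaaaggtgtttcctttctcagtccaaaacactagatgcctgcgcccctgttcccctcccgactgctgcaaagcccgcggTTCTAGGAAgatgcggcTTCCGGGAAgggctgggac

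Levels are log2 processed intensities from which each array's own log2 75th percentile was subtracted, so 0 stands for that percentile. The percentile itself lay between 71.3 and 308 (median 164), and the share of probes well above background between 40.7% and 55.3%. Sham and untreated arrays lay on slide 1, both STW5 doses on slide 2 and omeprazole on slide 3. Only untreated against sham and STW5 2 against 0.5 ml/kg lie within a slide. The other comparisons cross slides, and there treatment and slide cannot be told apart. The titles and the series' design text number the STW5 doses in opposite order, and the titles were followed. Untreated array 1 stood apart from its group: across genes it correlated on average at 0.984 with the sham arrays and at 0.919 with the other untreated arrays. Untreated array 2 had the lowest T cell marker score of all arrays (-2.68 on the log2 scale), so Socs3 is given without each of them, and other values where leaving one out was found to change a call. Array 1 was singled out from the values compared. Leaving it out therefore tends to widen the difference of untreated from sham blood. A call gained without array 1, here and below, is no added support for a difference.

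Socs3 had the smallest p of the 6 tested members in untreated and in all operated groups against sham. Its level on the 4 arrays was -0.94, -0.66, -0.72 and -0.34 in omeprazole rats and 0.06, -0.43, -0.17 and -0.53 in STW5 2 ml/kg rats. It was -0.85, -1.47, -0.39 and -1.15 in STW5 0.5 ml/kg rats, -1.29, 0.60, -0.22 and -0.22 in untreated rats, and -1.89, -1.49, -1.30 and -1.14 in sham rats. All omeprazole and STW5 2 ml/kg arrays lay above every sham array, as did 3 of 4 untreated arrays, while untreated array 1 lay among the sham arrays. The order of the group means was STW5 2 ml/kg (-0.27 ± 0.27), untreated (-0.28 ± 0.78), omeprazole (-0.66 ± 0.25), STW5 0.5 ml/kg (-0.97 ± 0.46) and sham (-1.45 ± 0.32; SD, n = 4 each). Each pair of neighbours in this order overlapped.

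**Figure D1:**
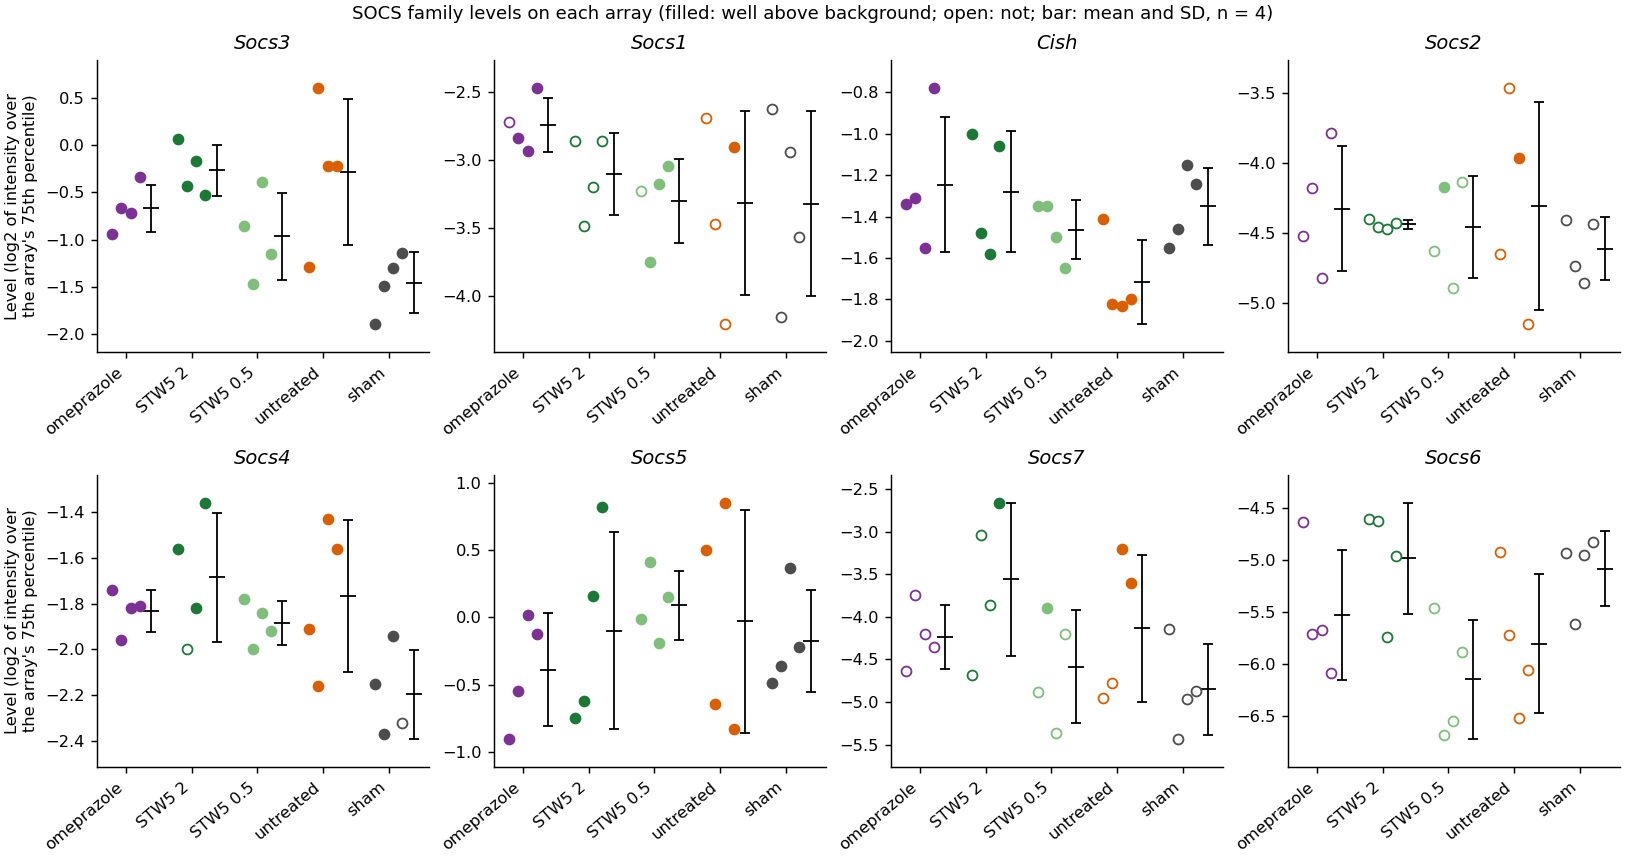
Level of each SOCS family gene on every array (y axis, log2 of intensity over the array's 75th percentile, with its own scale per gene) by group (x axis; STW5 doses in ml/kg). Filled points are well above background and open points are not, and the bar gives mean and SD of 4 arrays. Socs3 shows 13 of 16 operated arrays above all sham arrays, and Socs6 has open points only.

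Untreated esophagitis set against sham asks what the reflux model itself does to the blood. Socs3 averaged -0.28 in untreated and -1.45 in sham blood, a log2 difference of 1.17 ± 0.32 (SE; 95% confidence interval 0.50 to 1.85, 2.25-fold). The unadjusted p was 0.00174, rank 85 of 14652 genes, and the adjusted p from limma 0.236, so the difference did not pass. Without untreated array 1 it was 1.51 with an adjusted p of 0.00759 (limma), and 12% of all genes passed then. Without untreated array 2 it was 0.88 (adjusted p 0.195, limma). With arrays weighted by their fit it was 1.18 with an adjusted p of 0.00912 (limma), where 25.7% of all genes passed. The weights of untreated arrays 1 to 4 were 0.301, 0.231, 0.316 and 1.87, so the weighted untreated mean rests mostly on array 4. In the other 16 of 18 alternatives the adjusted p (limma) was above 0.05, up to 0.462.

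All 4 operated groups together were also set against sham. Socs3 had a log2 difference there of 0.91 ± 0.25 (1.88-fold, adjusted p 0.156, limma) and 13 of 16 operated arrays above every sham array. Without untreated array 1 it was 0.99 (adjusted p 0.0267, limma), where 2.05% of all genes passed. Groups lay fully apart, higher in the operated rats, for 0.102% of all genes in that comparison, and Socs3 was not among them. Each treated group was also set against sham, which was added after the values had been seen. Socs3 was 0.79 ± 0.32 higher in omeprazole than in sham blood (adjusted p 0.213, limma) and 1.18 ± 0.32 higher in STW5 2 ml/kg than in sham blood (adjusted p 0.165, limma), with no overlap of arrays in either. With arrays weighted by their fit these were 0.79 (adjusted p 0.00298, limma) and 1.06 (adjusted p 0.0218, limma), where 26.1% and 4.8% of all genes passed. Omeprazole array 2 had a weight of 7.43 there, against 0.793 to 1.92 for the other omeprazole arrays. With normexp, which here added an offset of 50 to every intensity, the omeprazole and STW5 2 ml/kg differences from sham were 0.38 and 0.62. Of all genes, 7.08% lay fully above sham in omeprazole blood and 4.37% in STW5 2 ml/kg blood. STW5 0.5 ml/kg blood differed from sham by 0.49 ± 0.32 (adjusted p 0.495, limma) with overlap. With the doses exchanged the differences from sham were 0.49 for 2 ml/kg and 1.18 for 0.5 ml/kg. In the authors' deposited value table, whose STW5 columns match arrays of the other dose, they were 0.61 and 1.16. Which dose lay further from sham therefore depends on the dose labels. These comparisons share the sham arrays, and those with treated groups cross slides. Fitted on the arrays of these groups alone, the omeprazole against sham difference had an adjusted p of 0.0423 (limma), and 10.5% of all genes passed. A smaller difference came with normexp background correction: 0.63 for untreated against sham and 0.43 for all operated groups against sham.

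The comparisons with untreated rats ask whether a drug moves the blood of operated animals. For Socs3 the differences from untreated were -0.38 ± 0.32 with omeprazole, 0.01 ± 0.32 with STW5 2 ml/kg and -0.68 ± 0.32 with STW5 0.5 ml/kg. Their adjusted p values were 0.57, 0.989 and 0.84 (limma). Without untreated array 1 the omeprazole difference was -0.72 and without untreated array 2 it was -0.09. The STW5 0.5 ml/kg difference was -0.39 without untreated array 2. Between the doses, Socs3 was 0.70 ± 0.32 higher at 2 than at 0.5 ml/kg (adjusted p 0.175, limma). With the doses exchanged this value has the opposite sign (-0.70), and it is -0.55 in the authors' deposited value table, whose STW5 columns follow the arrays of the other dose.

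**Figure D2:**
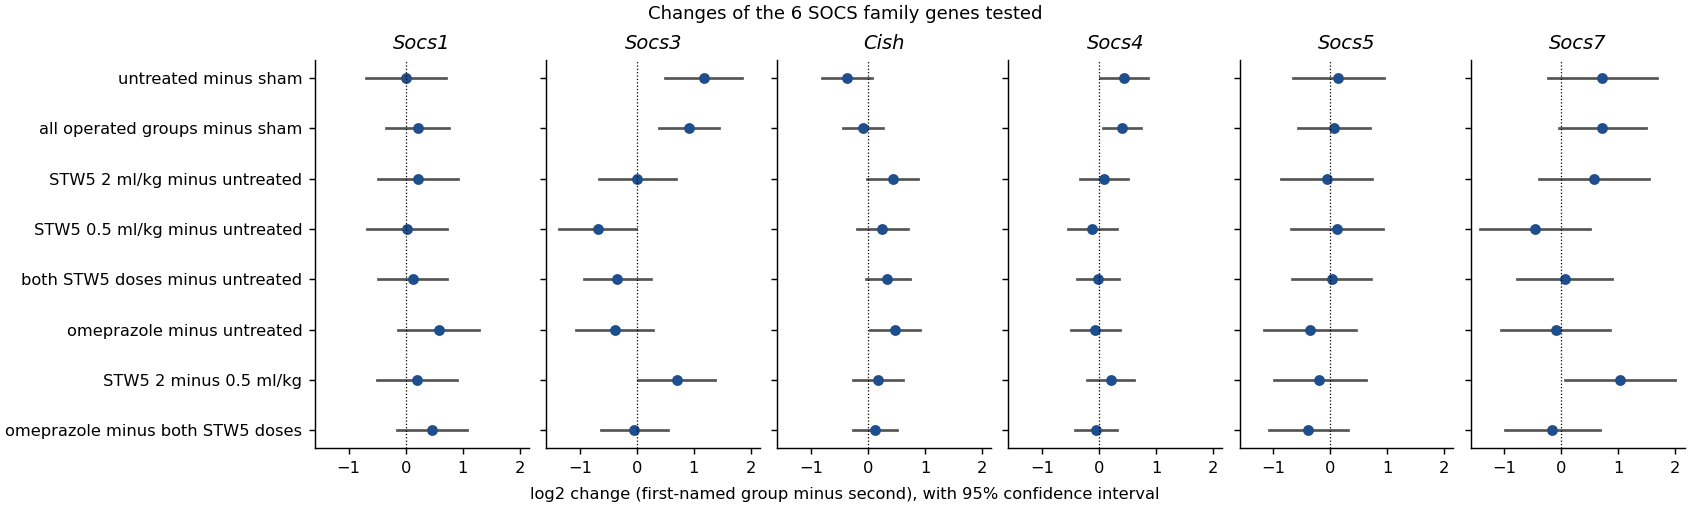
Log2 change of each of the 6 tested SOCS family genes (x axis, first-named group minus second, point and 95% confidence interval) in 8 comparisons (rows). The intervals of Socs3 lie above 0 in untreated minus sham (0.50 to 1.85) and in all operated groups minus sham (0.38 to 1.44), and most others include 0.

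Across arrays, Socs3 was high where marker genes of monocytes were high and where those of T cells were low. A cell type score is the mean log2 deviation of the list's tested genes, and score and member were both taken relative to the array's median gene. Over 20 arrays Socs3 correlated with the score of 8 monocyte genes at Pearson r = 0.707 (permutation p = 6e-04, adjusted p 0.00976 over 48 relations) and Spearman rho = 0.714 (adjusted permutation p 0.0288). The permutations shuffled all 20 arrays, so differences between groups or slides also enter these p values. After group means were taken out r was 0.801. Without the 2 arrays of most extreme score r was 0.573. Within slide 1 (sham and untreated) r was 0.94, within slide 2 (STW5) it was 0.093, and slide 3 held 4 omeprazole arrays, too few for a value. The relation therefore did not hold within the STW5 slide.

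With the score of 7 T cell genes Socs3 correlated at r = -0.703 (adjusted permutation p 0.00976) and rho = -0.648 (adjusted permutation p 0.06). The value without the 2 most extreme arrays was -0.485, and the values within slides 1 and 2 were -0.846 and -0.595. After group means were taken out r was -0.629. For platelet genes r was 0.643 (adjusted permutation p 0.0253) and rho 0.591 (adjusted permutation p 0.0858), and for B cell genes -0.618 (adjusted permutation p 0.0331) and -0.484 (adjusted permutation p 0.177). Without the 2 most extreme arrays these r values were 0.439 and -0.305, within slide 1 they were 0.896 and -0.783, and within slide 2 they were 0.185 and -0.128. After group means were taken out they were 0.583 and -0.553. Neutrophil genes gave r = 0.543 (adjusted permutation p 0.112) and rho = 0.459 (adjusted permutation p 0.21).

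The scores of these lists differed in range between the groups. The monocyte score ran from -0.61 to 1.15 in untreated and from -0.73 to -0.31 in sham blood, with untreated array 1 at -0.61. The T cell score ran from -2.68 to 0.49 in untreated and from 0.17 to 1.03 in sham blood. None of the 8 monocyte or 7 T cell genes passed in untreated against sham, but 6 of 8 were higher and 7 of 7 lower. The part of these cells in the Socs3 difference was not tested. The genes whose pattern over the 20 arrays was most like that of Socs3 were Ogfrl1 (r = 0.886) and Jun (r = 0.878), relative to the array's median gene.

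**Figure D3:**
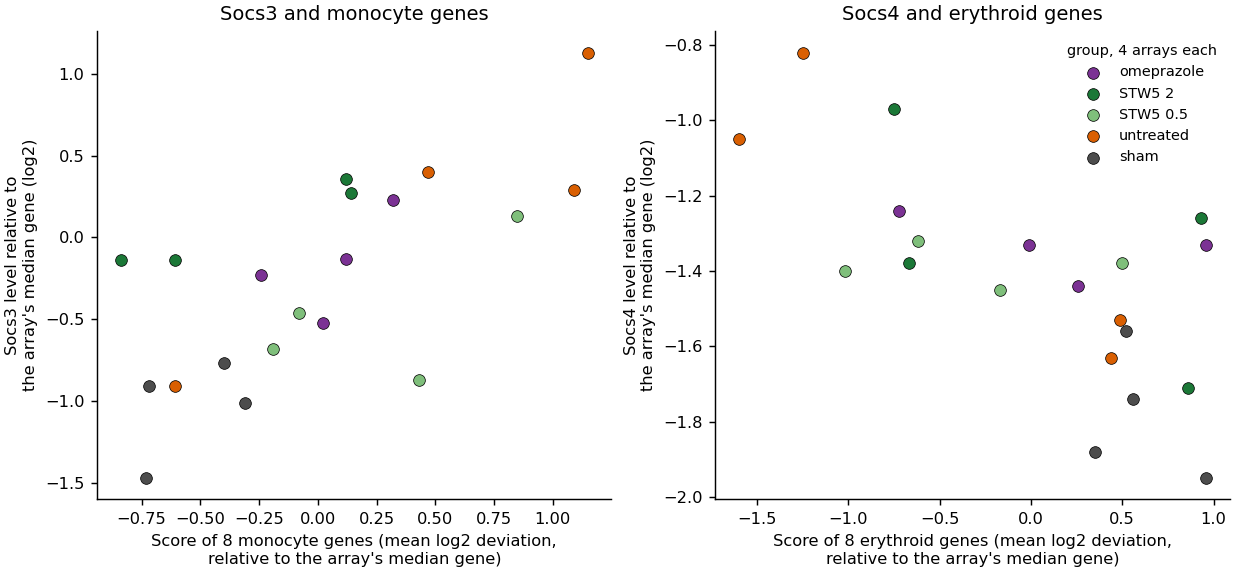
Left, Socs3 level against the score of 8 monocyte genes, and right, Socs4 level against the score of 8 erythroid genes, each point 1 of 20 arrays coloured by group (both axes in log2 units relative to the array's median gene; STW5 doses in ml/kg). Socs3 is high where the monocyte score is high (r = 0.707) and Socs4 is low where the erythroid score is high (r = -0.693).

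Socs1, which blocks JAK kinases downstream of interferon receptors, was near background. Its probe was well above background on 7 of 20 arrays: 3 of 4 omeprazole, 3 of 4 STW5 0.5 ml/kg and 1 of 4 untreated arrays, and on no STW5 2 ml/kg or sham array. The level was -2.72, -2.84, -2.93 and -2.47 in omeprazole rats, against -2.69, -3.47, -4.21 and -2.90 in untreated rats and -2.62, -4.16, -2.94 and -3.57 in sham rats. The omeprazole mean was -2.74 ± 0.20, and 2 STW5 2 ml/kg, 2 untreated and 1 sham array lay within the omeprazole range. Socs1 was 0.58 ± 0.34 higher in omeprazole than in untreated blood (95% confidence interval -0.13 to 1.28, adjusted p 0.415, limma). This was 0.28 without untreated array 3, 0.27 with array weights and 0.23 with normexp. Against sham, where the probe was not well above background, it was at least 1.05-fold higher in omeprazole blood (adjusted p 0.49, limma), with each sham array taken at its dimmest well-measured probe or, where brighter, its own Socs1 signal. The measured difference from sham was 0.58, 0.30 without sham array 2 and -0.08 with normexp, so its direction is not settled. Means in the other groups were -3.10 ± 0.30 in STW5 2 ml/kg, -3.30 ± 0.31 in STW5 0.5 ml/kg, -3.32 ± 0.68 in untreated and -3.32 ± 0.69 in sham blood; with most of these arrays near background, their order is largely one of background signal.

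Cish, the founding member, dampens STAT5 signalling from receptors such as those for interleukin 2 and erythropoietin. Both of its probes were well above background on all 20 arrays, and the brighter one, at chr8:112545330-112545389 on the plus strand of rn4, stands for the gene. Its level was -1.34, -1.31, -1.55 and -0.78 in omeprazole rats, -1.41, -1.82, -1.83 and -1.80 in untreated rats and -1.55, -1.46, -1.15 and -1.24 in sham rats. Except for array 1, the untreated arrays lay below every omeprazole and every sham array. STW5 2 ml/kg rats ran from -1.58 to -1 and STW5 0.5 ml/kg rats from -1.65 to -1.35.

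The Cish difference was -0.37 ± 0.21 in untreated against sham blood (adjusted p 0.309, limma) and 0.47 ± 0.21 in omeprazole against untreated blood (95% confidence interval 0.03 to 0.91, unadjusted p 0.038, adjusted p 0.279, limma). The omeprazole difference was 0.31 without omeprazole array 4. With STW5 2 ml/kg it was 0.43 ± 0.21 (adjusted p 0.219, limma) and with STW5 0.5 ml/kg 0.25 ± 0.21 (adjusted p 1, limma), both against untreated, and with both doses 0.34 ± 0.18 (adjusted p 0.553, limma). The second Cish probe gave group means of -1.71 ± 0.38 in omeprazole, -1.30 ± 0.66 in STW5 2 ml/kg, -2.10 ± 0.63 in STW5 0.5 ml/kg, -2.06 ± 0.76 in untreated and -1.61 ± 0.68 in sham blood. Its spread within groups was wider, and over 20 arrays the probes correlated at only 0.478. The order of the groups differed between the probes: omeprazole came first on the brighter probe and STW5 2 ml/kg on the other. The genes most like Cish were Ly75 (r = 0.692) and Gpr132 (r = 0.686).

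Socs2, the brake on growth hormone signalling, was printed on 10 spots and still was not tested. Its probe, at chr7:32605827-32605886 on the minus strand of rn4, was well above background on 1 untreated and 1 STW5 0.5 ml/kg array of 20. Its level ran from -4.82 to -3.79 in omeprazole, -4.47 to -4.40 in STW5 2 ml/kg, -4.89 to -4.14 in STW5 0.5 ml/kg, -5.15 to -3.47 in untreated and -4.86 to -4.41 in sham rats. The groups overlapped throughout, the STW5 2 ml/kg arrays lying closest together. The 10 spots of an array had a median SD of 0.44 on the log2 scale.

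Socs4 and Socs5 are known as regulators of epidermal growth factor receptor signalling. Socs4 was well above background on 18 of 20 arrays, all but 1 STW5 2 ml/kg and 1 sham array. Its level was -1.74, -1.96, -1.82 and -1.81 in omeprazole, -1.91, -2.16, -1.43 and -1.56 in untreated and -2.15, -2.37, -1.94 and -2.32 in sham rats. It ran from -2 to -1.36 in STW5 2 ml/kg and from -2 to -1.78 in STW5 0.5 ml/kg rats. Sham blood was the lowest group, and 12 of 16 operated arrays lay above every sham array.

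Socs4 was 0.40 ± 0.16 higher in all operated groups than in sham (95% confidence interval 0.07 to 0.74, unadjusted p 0.0205, adjusted p 0.305, limma) and 0.43 ± 0.20 higher in untreated than in sham blood (adjusted p 0.27, limma). These differences were lost with normexp background correction, at 0.00 and -0.05. The offset of 50 added there shrinks differences of dim probes, and the mean Socs4 intensity was 26.4 in sham and 61 in untreated blood. The 3 treated groups differed from untreated by -0.12 to 0.08. Against sham the treated groups were 0.36 ± 0.20 (omeprazole), 0.51 ± 0.20 (STW5 2 ml/kg) and 0.31 ± 0.20 (STW5 0.5 ml/kg) higher, with adjusted p values of 0.465, 0.306 and 0.488 (limma). With normexp these were 0, 0.24 and -0.19.

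Socs4 correlated with the score of 8 erythroid genes at r = -0.693 (adjusted permutation p 0.00976) and rho = -0.603 (adjusted permutation p 0.0853). Without the 2 most extreme arrays r was -0.547, within slide 1 it was -0.913 and within slide 2 -0.421. After group means were taken out r was -0.66. The erythroid score ran from -1.60 to 0.49 in untreated and from 0.35 to 0.96 in sham blood, and its part in the Socs4 difference was not tested. The genes most like Socs4 were Tbck (r = 0.852) and Yy1 (r = 0.846).

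Socs5 was well above background on every array and differed little between groups. Its level was -0.90, -0.55, 0.02 and -0.12 in omeprazole, -0.75, -0.62, 0.16 and 0.82 in STW5 2 ml/kg and -0.01, 0.41, -0.19 and 0.15 in STW5 0.5 ml/kg rats. It was 0.50, -0.64, 0.85 and -0.83 in untreated and -0.49, -0.36, 0.37 and -0.22 in sham rats. The untreated group alone spanned 1.68 log2 units. The difference of untreated from sham was 0.14 ± 0.38 with a 95% confidence interval of -0.66 to 0.95, and the largest of its 8 differences was -0.39 ± 0.33 for omeprazole against both STW5 doses (adjusted p 0.721, limma). The genes most like Socs5 were Aff4 (r = 0.879) and Zfp748 (r = 0.856).

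Socs6 and Socs7 are known as regulators of insulin and receptor tyrosine kinase signalling. Socs6 was well above background on no array, with an intensity of 2.89 to 4.11 throughout, and was not tested. Socs7 has 2 probes. The one that represents it, a 60-base probe on the plus strand whose bases are spread over chr10:86131550-86134020 (rn4), was well above background on 1 of 4 STW5 2 ml/kg, 1 of 4 STW5 0.5 ml/kg and 2 of 4 untreated arrays. It was not well above background on any omeprazole or sham array.

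The level of that Socs7 probe was -4.68, -3.04, -3.86 and -2.66 in STW5 2 ml/kg rats and -4.88, -3.90, -5.37 and -4.20 in STW5 0.5 ml/kg rats. The difference between the doses was 1.03 ± 0.46 (95% confidence interval 0.07 to 1.99, unadjusted p 0.0375, adjusted p 0.165, limma), with 3 of 4 arrays of the higher dose above all of the lower. With arrays weighted by their fit it was 1.60 (adjusted p 0.0301, limma) and with normexp 0.82 (adjusted p 0.0302, limma), where 8.64% and 19.4% of all genes passed, while with quantile normalization it was 0.52 (adjusted p 0.608, limma). With the doses exchanged it has the opposite sign. The other Socs7 probe was above background on 1 array and ran against the first over the 20 arrays (r = -0.5), so Socs7 values are uncertain. The genes most like the representing probe were Fnbp1 (r = 0.789) and Rabl6 (r = 0.788).

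Across the family no member passed in any of the 8 comparisons or the 3 added ones, and this was read against how many of all 14652 genes passed. In untreated against sham, 0 of 6 members passed, against 0.00683% of all genes. In omeprazole against untreated, 0 of 6 passed, against 4.32%, and in omeprazole against both STW5 doses 0 of 6, against 5.21%. In omeprazole against sham it was 0 of 6, against 5%. In the other 7 comparisons, 0 of 6 members and 0% of all genes passed. With 6 members tested, 0 passing is near the background in each comparison.

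Unadjusted p values under 0.05 were counted next. In untreated against sham 2 of 6 members had one (Socs3 and Socs4), against 18.5% of all genes. In all operated groups against sham there were 2 (Socs3 and Socs4), against 13%, and in STW5 2 against 0.5 ml/kg 2 (Socs3 and Socs7), against 26.9%. In omeprazole against untreated there was 1 (Cish), against 15.8%, and in STW5 0.5 ml/kg against untreated 1 (Socs3), against 5.9%. There were 0 in STW5 2 ml/kg against untreated, in both STW5 doses against untreated and in omeprazole against both doses, against 23.7%, 9.49% and 14.4% of all genes. In the added comparisons with sham there were 3 in STW5 2 ml/kg (Socs3, Socs4 and Socs7), 0 in STW5 0.5 ml/kg and 1 in omeprazole blood (Socs3), against 12.7%, 11.5% and 14.8% of all genes. The Socs7 probe counted here was well above background on 0 of 4 sham and 1 of 4 STW5 2 ml/kg arrays. The other Socs7 probe, not tested, differed by -1.03 in that comparison.

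The family's median log2 difference was 0.29 in untreated against sham, beside a median of -0.19 over all genes tested, and 5 of 6 members were higher. Of the 6 differences, 2 were smaller than their SE (Socs1 and Socs5), and Socs1 counted as higher at a difference that rounds to 0. Socs1 and Socs7 were well above background on no sham array. They were therefore tested through operated arrays only, which can raise the count and the median. Socs4 was at -0.05 with normexp, and the untested Socs7 probe differed by -0.99. In all operated groups against sham the family's median was 0.30 beside -0.12, with the same limit. In omeprazole against untreated it was -0.09 beside 0.10, with 2 of 6 members higher. The array's median level on this scale ran against its 75th percentile (r = -0.921 over 20 arrays, as a description); whether the shift of the median gene comes from the scaling was not tested.

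Correlations between members were computed next. Among the 15 pairs of tested members, no correlation over the 20 arrays passed: the highest was Socs4 with Socs7 (r = 0.546, adjusted permutation p 0.194; rho = 0.429, adjusted permutation p 0.452). Socs3 with Socs4 gave r = 0.496 (adjusted permutation p 0.194) and rho = 0.609 (adjusted permutation p 0.0805), with 0.545 within slide 1 and 0.206 within slide 2. Nor did any of the 6 tested members pass with the array's overall signal (adjusted permutation p of 0.327 or more over 6 relations).

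The rest of the JAK-STAT pathway gives the setting of the members, through lists of genes named by role. Of the JAK kinases and STAT factors 10 of 11 were tested, and 0 passed in any of the 11 comparisons. At an unadjusted p under 0.05 there were 0 to 3, against 5.9% to 26.9% of all genes over these comparisons. Stat3, the main carrier of interleukin 6 signals and an inducer of Socs3, was 1.09 ± 0.33 higher in untreated than in sham blood (adjusted p 0.236, limma) and -0.90 ± 0.33 in omeprazole against untreated blood (adjusted p 0.165, limma). Without untreated array 1 these were 1.44 (adjusted p 0.00959, limma) and -1.26 (adjusted p 0.00945, limma), where 12% and 7.75% of all genes passed, and without untreated array 2 they were 1.05 and -0.86 and did not pass. The kinase Jak2 was 0.56 ± 0.24 higher in untreated than in sham blood (adjusted p 0.256, limma; 0.75 without untreated array 1, adjusted p 0.0454), and Stat5b, an inducer of Cish, was at 0.52 ± 0.27 in omeprazole against untreated blood (adjusted p 0.371, limma). The list's median in untreated against sham was -0.10 beside -0.19 over all genes.

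Of the cytokine receptors that signal through JAKs, 22 of 33 were tested. In untreated against sham and in omeprazole against untreated, 0 of 22 passed, with medians of 0.41 and 0.16 beside -0.19 and 0.10 over all genes. At an unadjusted p under 0.05 there were 10 and 4 of 22, against 18.5% and 15.8% of all genes. In omeprazole against sham 3 of 22 passed and were higher, against 0.819% of all genes that passed and were higher. They were the G-CSF receptor Csf3r, at 1.59 ± 0.42 (adjusted p 0.0326, limma), the interferon gamma receptor chain Ifngr2, at 1.14 ± 0.32 (adjusted p 0.0411, limma), and the interleukin 13 receptor chain Il13ra1, at 1.75 ± 0.47 (adjusted p 0.0326, limma). Each of these 3 calls was lost without sham array 1, 3 or 4 or omeprazole array 2 or 4 (Ifngr2 also without sham array 2), at adjusted p up to 0.143, 0.189 and 0.14 (limma). All 3 were also lost without a filter on dim probes, Ifngr2 and Il13ra1 with normexp (1.1 and 0.85), and Ifngr2 in the authors' deposited value table (1.22). The neutrophil score, whose list includes Csf3r, ran from -0.11 to 1.01 in omeprazole and from -1.05 to -0.30 in sham blood, and its part in these differences was not tested.

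Further receptors were named by rank. In untreated against sham blood, Csf2ra was at 1.11 ± 0.38 (adjusted p 0.236, limma), and Csf2rb, not well above background in sham blood, was at least 1.07-fold higher (adjusted p 0.236, limma), though its difference was -0.05 with normexp. In omeprazole against untreated blood, Il21r was at 1.39 ± 0.53 (adjusted p 0.185, limma) and Il4r at 0.56 ± 0.22 (adjusted p 0.204, limma). All of these missed the threshold. With untreated array 1 left out, Csf2ra was at 1.52 in untreated against sham (adjusted p 0.0154, limma), and Il21r at 1.88 and Il4r at 0.75 in omeprazole against untreated blood (adjusted p 0.0255 and 0.0393, limma); 12% and 7.75% of all genes passed in these comparisons then. With untreated array 2 left out, Csf2ra was at 1, Il21r at 0.67 and Il4r at 0.64 (adjusted p 0.202, 0.368 and 0.165, limma). In omeprazole against untreated blood 7 of 7 T cell genes were higher, with a median of 1.18, and their part in these differences was not tested.

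Of the ligands of these receptors, the upstream end of the loop, 7 of 28 were tested and 0 passed in any of the 11 comparisons. At an unadjusted p under 0.05 there were 0 to 4, against 5.9% to 26.9% of all genes over these comparisons. The array named a probe for 27 of the 28, and the 21 that were not tested include interleukin 6 and interferon gamma. Il13 was at -0.84 ± 0.42 in untreated against sham (adjusted p 0.274, limma) and at 0.86 ± 0.42 in omeprazole against untreated blood (adjusted p 0.323, limma). Osm was at -0.68 ± 0.36 in untreated against sham (adjusted p 0.288, limma). Csf3 was not well above background on any omeprazole or STW5 2 ml/kg array, and its mean level was -4.18 in omeprazole, -3.12 in STW5 2 ml/kg and -3.03 in untreated blood.

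All 14 other negative regulators of JAK-STAT signalling were tested, and 0 passed in any of the 11 comparisons. At an unadjusted p under 0.05 there were 0 to 4, against 5.9% to 26.9% of all genes over these comparisons. Cblb, a ubiquitin ligase, was at 0.91 ± 0.32 in untreated against sham (adjusted p 0.236, limma) and at -0.88 ± 0.32 in omeprazole against untreated blood (adjusted p 0.164, limma). Both passed without untreated array 1, at 1.15 and -1.12 (adjusted p 0.0358 and 0.0414, limma), where 12% and 7.75% of all genes passed, and missed it without untreated array 2, at 0.79 and -0.76. Pias3, an inhibitor of Stat3, was at 0.62 ± 0.29 in untreated against sham (adjusted p 0.27, limma), and Ptprc, the leukocyte phosphatase CD45, at 0.63 ± 0.25 in omeprazole against untreated blood (adjusted p 0.212, limma; 0.4 without untreated array 2).

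Among these pathway lists, the ubiquitin ligase that the SOCS box recruits held the only gene that passed against untreated rats. Of its 6 partners 1 passed: Rnf7, the RING protein that works with cullin 5, fell in omeprazole against untreated blood by 1.5 on the log2 scale (SE 0.19, adjusted p 2e-05, limma), against 3.97% of all genes that passed and were lower. Its level was -3.62, -3.41, -3.01 and -3.01 in omeprazole, -1.76, -1.80, -1.93 and -1.57 in untreated and -2.19, -1.83, -2.03 and -1.76 in sham rats, with no overlap. Against both STW5 doses it fell by 1.65 (SE 0.16, adjusted p 6.02e-07, limma) and against sham by 1.31 (SE 0.19, adjusted p 0.000102, limma), where 4.92% and 4.18% of all genes passed and were lower. The probe was well above background on 1 of 4 omeprazole arrays and on all 16 others. With normexp background correction the difference from untreated was -0.42 (adjusted p 0.125, limma). The omeprazole arrays share a slide with no other group, so slide and drug cannot be told apart here. The other partners missed the threshold, among them Elob at -0.90 ± 0.44 (adjusted p 0.273, limma) and Rbx1 at -0.54 ± 0.28 (adjusted p 0.284, limma) in untreated against sham blood.

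Of the STAT3 and STAT5 target genes 19 of 21 were tested. In untreated against sham and in omeprazole against untreated, 0 passed, with medians of 0.25 and 0.30 beside -0.19 and 0.10 over all genes. At an unadjusted p under 0.05 there were 9 and 2 of 19, against 18.5% and 15.8% of all genes. Id1 was at 2.08 ± 0.60, Junb at 1.08 ± 0.33, Cebpb at 1.27 ± 0.46 and Cebpd at 1.27 ± 0.44 in untreated against sham blood (adjusted p 0.236 for each, limma); Id1 was well above background on 1 of 4 sham arrays. Without untreated array 1 these 4 passed, at 2.82, 1.43, 1.74 and 1.71 (adjusted p 0.00339, 0.0122, 0.0203 and 0.0175, limma), as did 12% of all genes. Without untreated array 2 they were at 1.63, 0.96, 1.02 and 1.04 and did not pass. In omeprazole against sham 1 of 19 passed, against 5% of all genes in either direction and 0.819% that were higher: Cebpd, a transcription factor induced in myeloid cells, was 1.83 ± 0.44 higher (adjusted p 0.0148, limma), a call lost without sham array 1 or omeprazole array 2 or 4. Cebpb was at -1.21 ± 0.46 in omeprazole against untreated blood (adjusted p 0.19, limma), and at -1.68 without untreated array 1 (adjusted p 0.0183, limma).

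**Figure D4:**
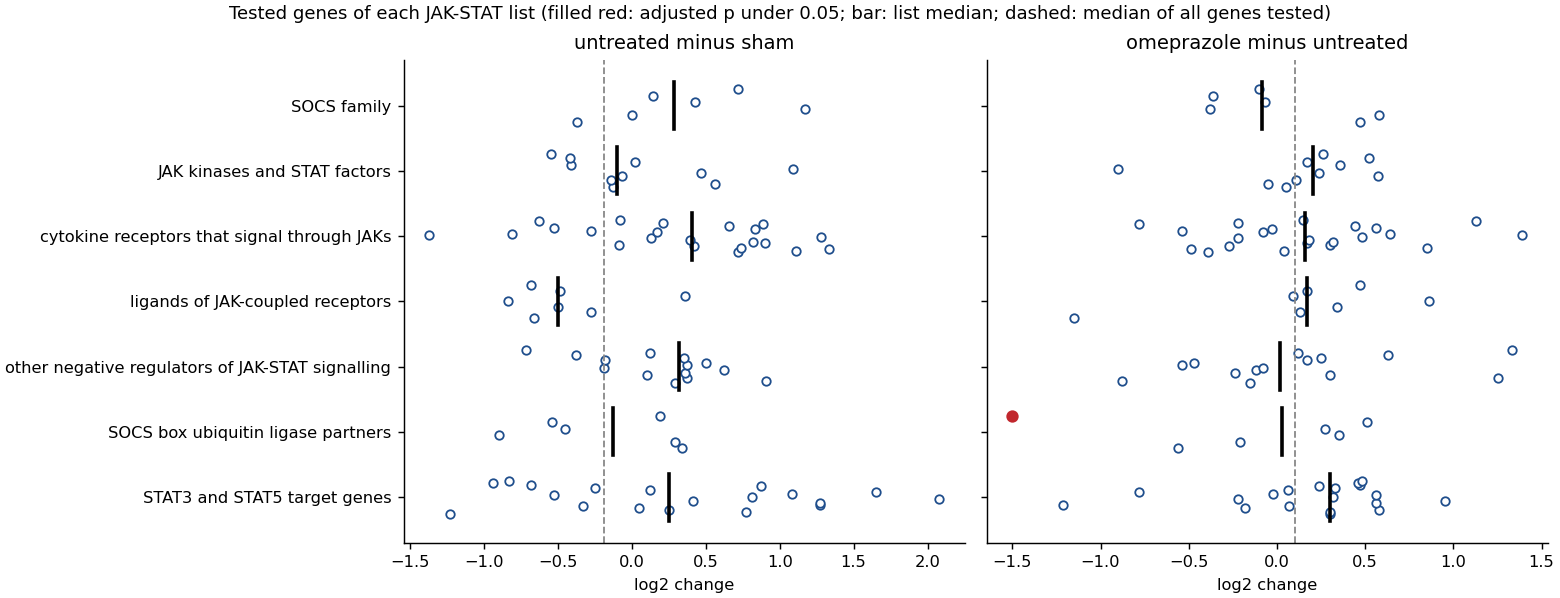
Log2 changes (x axis) of every tested gene of the SOCS family and of 6 JAK-STAT lists (rows) in untreated minus sham and in omeprazole minus untreated; open points did not pass, red points passed at an adjusted p under 0.05, bars are list medians and the dashed line is the median of all genes. The only red point is Rnf7 at -1.5 in the right panel, and the receptors have their median at 0.41 in the left panel.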

How the data were processed

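RNA from whole blood, collected in PAXgene tubes, was labelled with Cy3 and hybridised to 1-colour Agilent rat arrays, 4 per group in 5 groups, per the labels. The authors' Feature Extraction software made the processed intensities per the file headers: a fitted background surface was subtracted, low values were replaced by surrogates and a multiplicative trend was removed, with no normalization between arrays. The deposited value table holds a ratio, which on comparison was each array's processed signal over its median (largest difference 1.1e-05 on the log2 scale). Of its 20 columns, 12 match their own array and 8 STW5 columns match an array of the other dose.

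From the intensities, control and outlier spots (0.683%) were left out, log2 values were centred on each array's 75th percentile, and spots of a probe were averaged. The brightest probe stood for a gene. Groups were compared over all 20 arrays in limma 3.58.1 with R 4.3.3, by lmFit with 5 group means and then eBayes, two-sided, with 15 residual degrees of freedom and Benjamini-Hochberg adjustment over 14652 genes at a threshold of 0.05. The median SE of a difference was 0.35, and the number of arrays limits the precision. The arrays of a group come from 4 animals, per the series' design text. Permutation tests used 100000 resamples that shuffled all 20 arrays without regard to group or slide. The fit was tested on simulated data.

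The members and the gene lists were chosen with earlier results of these data known. Named genes were all members, every listed gene that passed, the 2 of each list with the smallest p in untreated against sham and in omeprazole against untreated, and the 2 genes most like each member. Replicate numbers were tested for pairing: over 40 same-number pairs the correlation of deviations ran from -0.449 to 0.6, and they were not used as pairs. Alternatives covered background, scaling, filter, probe choice, block, array weights, the authors' table, exchanged STW5 doses, the arrays compared alone and each array left out. The background alternative was normexp with an offset of 50, a constant added to every intensity that shrinks log2 differences of dim probes. One further gene list is not reported here.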

Additional observations from a re-analysis of the deposited data

Results flagged for a closer look

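Of 50 groups of 4 arrays (10 probes in 5 groups), 2 held an array far from the other 3 by Dixon's test, where chance gives about 1 in 20. Cish on its brighter probe was at -1.41 on untreated array 1, while the other untreated arrays lay between -1.83 and -1.80. This is the untreated array that correlated best with the sham arrays. Socs6 was at -5.61 on sham array 2, while the other sham arrays lay between -4.95 and -4.82, all of them not well above background. Its intensity was 3.54 on sham array 2 and 3.33 to 3.8 on the other sham arrays. The 75th percentile subtracted was 173 on that array and 97.8 to 116 on the others.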

How the results depend on the processing

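Over 25 member differences and 488 alternative values, 466 kept their direction and their side of the threshold, 11 reversed and 11 passed. The 25 were only those differences that exceeded their SE. Both groups also had an array well above background, or a lowest fold could be given. Their signs were therefore less free to reverse than those of the other differences, and passes outside the 25 are listed below as well. With normexp background correction Socs4 was -0.05 and Csf2rb -0.05 in untreated against sham, Socs1 -0.08 and Socs4 0 in omeprazole against sham, and Socs4 -0.19 in STW5 0.5 ml/kg against sham. In the authors' value table Socs7 was -0.39 in STW5 2 ml/kg against untreated, and Socs3 -0.55 and Socs7 -0.88 between STW5 2 and 0.5 ml/kg. With the doses exchanged Socs3 was 0.01 in STW5 0.5 ml/kg and Socs7 -0.46 in STW5 2 ml/kg against untreated, and Socs3 was -0.7 and Socs7 -1.03 between the doses; the exchange itself turns these.

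Between STW5 2 and 0.5 ml/kg, 3 members passed with normexp (Socs1, Socs4 and Socs7, beside 19.4% of all genes), 1 without a filter on dim probes (Socs6, 20.5%) and 1 with array weights (Socs7, 8.64%). Socs6 was well above background on no array, and its mean intensity was 3.13 at 2 and 3.17 at 0.5 ml/kg. The 75th percentile subtracted from it ran from 71.3 to 163 and from 152 to 308 at these doses. Array weights passed 2 members in untreated against sham (beside 25.7% of all genes) and 3 in all operated groups against sham (24.9%). They also passed Socs3 and Socs7 in omeprazole against sham (26.1%) and in STW5 2 ml/kg against sham (4.8%). Leaving out 1 array gave 0 to 1 in untreated and in all operated groups against sham. The 1 was Socs3 without untreated array 1, where 12% and 2.05% of all genes passed. The causes were not tested. All genes passing in untreated against sham numbered 1, and 0 to 3772 over the alternatives (1756 without untreated array 1). In omeprazole against untreated they numbered 633, and 356 to 2871.

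Replicate numbers were not used as pairs: 19 of 40 same-number pairs correlated above 0.1, and 5 of 20 arrays correlated best with their own number. The median correlation was 0.091 for same-number pairs and -0.037 for pairs of other numbers. Whether the numbers mark pairs is not settled. With the number as a block 0 members passed (Socs3 1.17, adjusted p 0.121 from limma, in untreated against sham), while all genes passing numbered 562 in STW5 2 ml/kg against untreated and 550 between the doses, against 0 each without the block. The block also made Stat3 pass in omeprazole against untreated (-0.9, adjusted p 0.0404, limma). Dim signal limits Socs1, Socs2, Socs6 and Socs7.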
